A study of Mus musculus with 6 samples.

Results

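The NMDA receptor subunit genes *Grin1*, *Grin2a*, *Grin2b*, *Grin2c*, *Grin2d* and *Grin3a* were followed in RNA sequencing (RNA-seq) of the medial prefrontal cortex (mPFC) of mice that overexpress *Shank3*. They were the rows of the deposited table whose Ensembl identifiers carry these symbols in the GENCODE M21 annotation of the mouse genome (GRCm38), and they made up 6 of its 18254 genes. *Shank3* encodes a scaffolding protein of the excitatory postsynapse, and the study asked which mRNAs change in the mPFC when it is mildly overexpressed. The *Shank3* TG mice carried an EGFP-*Shank3* transgene, and the WT mice were their littermates without it. All mice were males on a C57BL/6J background, aged 10 to 12 weeks, and received no treatment named in the labels or the methods. There were 3 libraries per genotype, numbered TG-1 to TG-3 for the transgenic and WT-1 to WT-3 for the wild-type pools, each made from the pooled mPFC of 2 mice, so the spread between libraries is a spread between pools. The promoter of the transgene and the number of transgenic lines are not given in the sources used here. The values are normalized counts, that is, estimated read counts per gene divided by a size factor for each library.

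NMDA receptors are glutamate-gated cation channels that open when glutamate and a co-agonist, glycine or D-serine, are bound and the membrane is depolarized. Each receptor holds the obligatory subunit GluN1, encoded by *Grin1*, together with GluN2 subunits, encoded by *Grin2a* to *Grin2d*, or GluN3 subunits, encoded by *Grin3a* and *Grin3b*. In the forebrain, GluN2B predominates early and GluN2A gains ground as synapses mature, and the GluN2 subunit sets how fast the channel closes and which proteins its long intracellular tail binds. In the postsynaptic density, the GluN2 tails bind PSD-95, which is linked to Shank3 through the GKAP (SAPAP) proteins.

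All 6 genes lie on the minus strand of GRCm38 and on different chromosomes. *Grin1* (ENSMUSG00000026959) is at chr2:25291181-25319187 and spans 28.0 kb. *Grin2a* (ENSMUSG00000059003) is at chr16:9567898-9995560 and spans 427.7 kb, and *Grin2b* (ENSMUSG00000030209) is at chr6:135713233-136173511 and spans 460.3 kb. The shorter *Grin2c* (ENSMUSG00000020734) is at chr11:115249169-115267243 and *Grin2d* (ENSMUSG00000002771) at chr7:45831883-45878378. *Grin3a* (ENSMUSG00000039579) is at chr4:49661611-49845744. An antisense gene, *Grin1os*, lies within *Grin1* on the other strand. The library kit keeps the strand, but whether the quantification used it is not stated, so reads of *Grin1os* were not separated from those of *Grin1* here.

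The coding sequences of the family are alike in places, which bears on whether reads of one subunit can be told from those of another. The 30 bases below are the coding window most alike across the 6 genes, and 18 bases, in capitals, are identical in all of them. The window codes for part of the membrane segment that lines the channel pore and holds a motif that is conserved across ionotropic glutamate receptors. The window is shown for 5 of the genes, and each sequence is from the GENCODE M21 transcript and reads 5′ to 3′ on the minus strand of GRCm38.
Grin1, exon 15, chr2:25297193-25297222: TAcACtGCcAAccTgGCaGCctTCcTGgTg
Grin2a, exon 10, chr16:9653441-9653470: TAcACaGCcAAccTgGCtGCctTCaTGaTc
Grin2b, exon 11, chr6:135772238-135772267: TAcACtGCcAActTaGCcGCctTCaTGaTc
Grin2c, exon 11, chr11:115253743-115253772: TAcACgGCcAAtcTgGCaGCctTCaTGaTc
Grin3a, exon 3, chr4:49770464-49770493: TAcACaGCgAActTgGCtGCtgTCaTGgTa

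In this window *Grin2a* and *Grin2c* each matched *Grin1* at 25 of the 30 bases, *Grin2b* at 24 and *Grin3a*, the least alike, at 22. Over whole transcripts only exact shared stretches were sought, so the likeness outside this window was not measured. Of the 15 pairs of genes, 13 shared no stretch of 31 bases, the word length searched here. Among the exceptions, *Grin2c* and *Grin2d* shared a run of 32 bases. It is shown in capitals with 8 flanking bases on each side in lower case, as the longest stretch in which the letters alone do not tell *Grin2c* from *Grin2d*, and the flanks show the first bases that do.
Grin2c with Grin2d, in Grin2c, exon 9, chr11:115255369-115255416: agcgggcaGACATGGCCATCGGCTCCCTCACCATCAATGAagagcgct
Grin2c with Grin2d, in Grin2d, exon 7, chr7:45856836-45856883: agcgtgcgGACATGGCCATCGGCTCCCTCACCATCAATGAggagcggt

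The summed normalized counts of a library lay between 28363967 and 29447717 after scaling by size factors, which removes depth, and the numbers of reads were not recovered from the table. *Shank3* was above WT in all TG libraries, at 17470, 19004 and 16310.4 normalized counts in TG-1, TG-2 and TG-3 against 8374, 8173 and 6791 in WT-1 to WT-3. This was a 2.27-fold difference, with a limma adjusted p = 0.0643 over all tested genes, or 0.000437 when libraries of the same replicate number were compared (the replicate number as a block). The libraries numbered 3 stood apart from the other 4 in both genotypes: 20.3% of the 16714 tested genes were higher in TG-3 and WT-3 than in any other library and 20.6% were lower than in any other. Markers of cortical excitatory neurons summed to 58189 to 68046 normalized counts and those of striatal neurons to 4586 to 5019. The 8 oligodendrocyte markers summed to 42045 to 54725 in TG and 60988 to 71388 in WT, with 7 of 8 lower in TG at an unadjusted limma p under 0.05. The 6 olfactory bulb markers summed to 1610 in TG-2 against 223 to 436 in the other libraries. The 5 choroid plexus markers summed to 570 in TG-3 against 96 to 234, and *Ttr* alone had 445 of these counts in TG-3.

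No difference between *Shank3* TG and WT mPFC was detected for any of the NMDA receptor subunit genes. The fitted changes ran from 1.01-fold for *Grin2a* to 1.07-fold for *Grin2c*, and each was smaller than its standard error. None of the 6 passed an adjusted p of 0.05, at which 0% of all 16714 genes were called, and none passed an unadjusted p of 0.05, at which 2.01% were called. In none did the genotypes fail to overlap, which they did for 6.02% of all genes. *Shank3* itself missed the adjusted threshold here at 2.27-fold (limma adjusted p = 0.0643), so 0% called does not mean that no gene differed. From these libraries the study, with DESeq2 and an empirically estimated null distribution, did call genes, *Shank3* and myelin-related genes among them. In bulk tissue, fewer cells of a type and less RNA per cell cannot be told apart, and this holds for each value that follows.

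**Figure D1:**
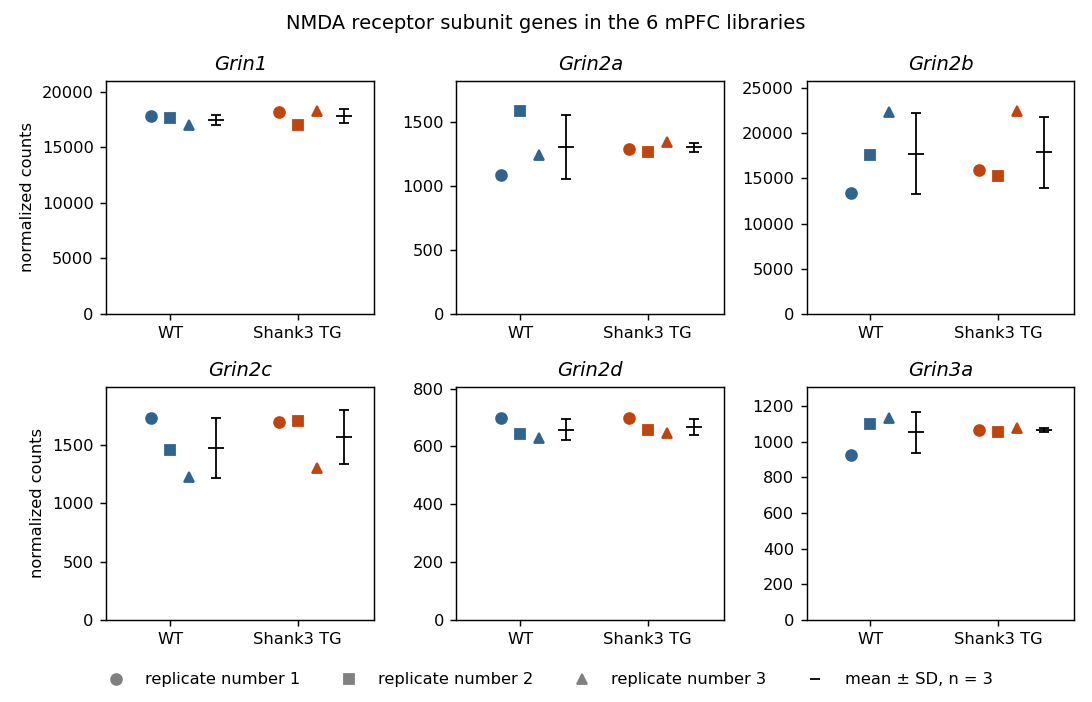
Normalized counts of the 6 NMDA receptor subunit genes in each library (vertical axes, from 0, with a scale for each gene), for WT (blue) and *Shank3* TG (orange). Circles, squares and triangles mark replicate numbers 1, 2 and 3, and the black bars give the mean ± SD of 3 libraries. In each panel the genotypes overlap, and the triangles are the highest points of each genotype for *Grin2b* and the lowest for *Grin2c*.

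*Grin1*, which encodes the subunit that all NMDA receptors need, had 18159, 17039.8 and 18226 normalized counts in TG-1, TG-2 and TG-3, and WT-1, WT-2 and WT-3 had 17816, 17659 and 16961. The highest and the second highest library were TG and the lowest was WT-3, but TG-2 lay below 2 of the WT libraries. The mean was 17808 ± 666 in TG and 17479 ± 455 in WT (SD, n = 3 each). The log2 fold change, here and below the difference of TG minus WT on the log2(normalized count + 1) scale, was 0.027 ± 0.068 (SE), with a 95% interval from -0.13 to 0.18 and a limma adjusted p = 1. On the linear scale that interval ran from 0.913-fold to 1.14-fold, the narrowest of the 6 genes. Its coefficient of variation over the 6 libraries was 3.07%, the lowest of the family.

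*Grin2a*, which encodes the GluN2A subunit of mature synapses, had 1289.55, 1266 and 1340.4 normalized counts in TG and 1085, 1581 and 1241 in WT. The TG libraries lay close together and between the lowest and the highest WT library. The means were 1298.5 ± 38.2 in TG and 1302 ± 253 in WT (SD, n = 3 each), with a log2 fold change of 0.013 ± 0.13 (SE) and a 95% interval from -0.30 to 0.32 (limma adjusted p = 1). The TG mean of the counts was thus slightly below that of WT, while the mean of the log2 values was slightly above. The 3 pairs of libraries with the same number did not share a direction, since TG minus WT was 0.25 for number 1, -0.32 for number 2 and 0.11 for number 3 on the log2 scale.

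*Grin2b*, which encodes the GluN2B subunit, varied most. It had 15939.6, 15268 and 22441 normalized counts in the TG libraries, in the order of their numbers, and 13358.5, 17554 and 22332 in the WT libraries. TG-3 and WT-3 were the highest libraries and differed by 0.0070 on the log2 scale, while the other 4 libraries spread from 13358.5 to 17554. Within TG the library numbered 3 lay 0.52 above the mean of the other TG libraries on the log2 scale, and within WT it lay 0.54 above, which together made 1.45-fold. The genotype means were 17883 ± 3962 and 17748 ± 4490 (SD, n = 3 each). The log2 fold change was 0.020 ± 0.21 (SE), with a 95% interval from -0.46 to 0.50, which is 0.725-fold to 1.42-fold and the widest of the family (limma adjusted p = 1).

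When TG and WT were compared within each replicate number, the standard error of *Grin2b* was 2.51 times smaller. The blocked 95% interval ran from -0.17 to 0.21, or 0.889-fold to 1.16-fold (limma adjusted p = 0.996). Without TG-3 and WT-3 the log2 fold change was 0.027 ± 0.12 (SE), close to the value with them.

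*Grin2c*, which encodes GluN2C and is best known from cerebellar granule cells and, in the forebrain, from astrocytes and some neurons, moved the other way in the libraries numbered 3. It had 1698, 1706 and 1303 normalized counts in TG and 1738, 1461 and 1229.99 in WT. TG-3 and WT-3 were below the other 4 libraries, by 0.39 within TG and by 0.37 within WT on the log2 scale, or 0.769-fold together. The 7 astrocyte markers also summed lowest in these libraries, at 29307 in TG-3 and 30248 in WT-3 against 33307 to 36559 in the other 4, with 4 of the 7 below the other libraries in both, against 20.6% of all genes. *Sox9* went the other way, at 947 in TG-3 and 923 in WT-3 against 506 to 693 in the other libraries. *Slc4a4* and *Gfap* fell on neither side. *Aldoc*, at 14679 and 14889.5 in TG-3 and WT-3, made the largest part of the summed counts. The part of these markers in the *Grin2c* values was not tested. The genotype means of *Grin2c* were 1569 ± 231 and 1476 ± 254 (SD, n = 3 each). Its log2 fold change, the largest of the family, was 0.091 ± 0.15 (SE), with a 95% interval from -0.26 to 0.45 (limma adjusted p = 1). The blocked interval was -0.064 to 0.25, or 0.956-fold to 1.19-fold, and still held 0, and the value without TG-3 and WT-3 was 0.095 ± 0.10 (SE).

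*Grin2d*, which encodes GluN2D and in the adult forebrain is found mainly in interneurons, had 698, 658 and 646 normalized counts in TG and 699.9, 643 and 631 in WT. The values of the genotypes interleaved, and the same-number pairs differed by no more than 0.036 on the log2 scale. The log2 fold change was 0.022 ± 0.086 (SE), with a 95% interval from -0.18 to 0.22 (limma adjusted p = 1). The 8 markers of inhibitory neurons summed to 22217 to 22572 normalized counts in TG and 21401 to 22288 in WT.

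*Grin3a*, which encodes GluN3A, a subunit that lowers calcium entry and is most abundant in young brain, had 1066, 1055 and 1079 normalized counts in TG and 925, 1099 and 1137 in WT. The TG libraries lay close together and inside the WT range. The log2 fold change was 0.023 ± 0.096 (SE), with a 95% interval from -0.20 to 0.25 (limma adjusted p = 1). The SD was 12.0 in TG and 113 in WT, and with 3 libraries each this difference in spread was not tested.

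**Figure D2:**
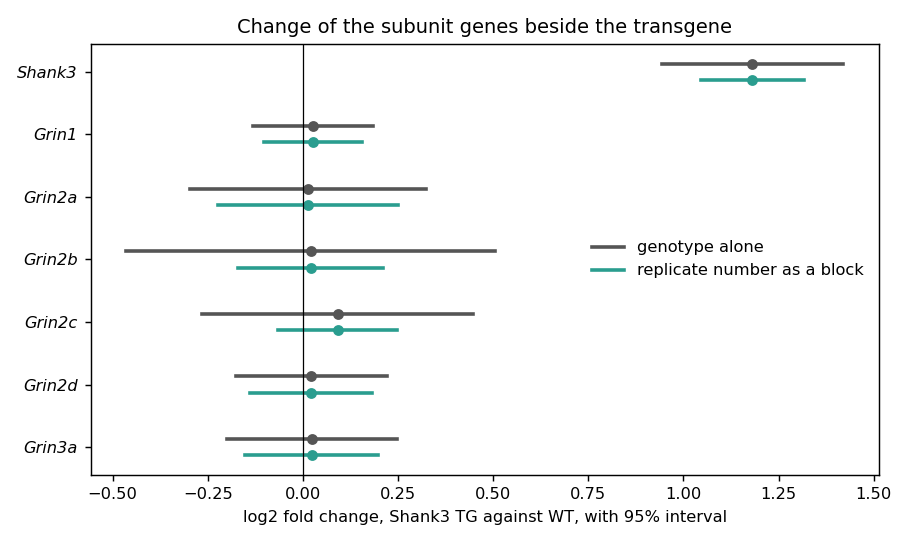
Log2 fold change of *Shank3* TG against WT (points) with its 95% interval (lines) for *Shank3* and the 6 subunit genes, from the limma test with genotype alone (grey) or within replicate numbers (green). Each interval of the subunit genes holds 0, and the latter shortens those of *Grin2b* and *Grin2c* most.

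The fitted values of all 6 genes were above 0 on the log2 scale, although the mean count of *Grin2a* was not higher in TG, with a median log2 fold change of 0.023 against -0.0037 over all tested genes. The median standard error over all genes was 0.13, larger than these values, and 8119 of the 16714 genes had a fitted value above 0. With the block, which was read from these same data, the intervals of all 6 genes lay between 0.857-fold and 1.19-fold. This leaves room for changes of that size in either direction. A missed threshold does not show that the genotypes were alike within it.

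The levels of the 6 genes were set in order only per length, since a longer transcript gives more reads. Per kb of the union of all annotated exons, and as a mean of the 6 libraries, *Grin1* was highest at 1819 normalized counts per kb and *Grin2b* second at 717. *Grin2c* followed at 302, *Grin2d* at 99.5, *Grin3a* at 86.4 and *Grin2a* at 72.5 normalized counts per kb. *Grin1* was thus 2.54-fold above *Grin2b* per kb, and *Grin2b* 2.37-fold above *Grin2c*. Neighbours in this order did not overlap over the 6 libraries, except for *Grin3a* (75.3 to 92.6) and *Grin2a* (60.5 to 88.1), whose ranges did.

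*Grin1* was first and *Grin2b* second with each annotated length used, but the order and separation of the others changed. Per kb of the longest coding sequence, *Grin1* stood at 6133 and *Grin2b* at 4007 normalized counts per kb, followed by *Grin2c* at 410. The *Grin2c* range of 330.9 to 468 normalized counts per kb then overlapped those of *Grin3a* (272 to 334) and *Grin2a* (247 to 359.9). On that scale *Grin2d* was last at 167 normalized counts per kb, below *Grin2a* at 296. The union of exons is 17.93 kb for *Grin2a* and 24.84 kb for *Grin2b*, against coding sequences of 4.39 and 4.45 kb, whereas those of *Grin2c* are 5.04 and 3.72 kb. The transcripts that the mPFC uses are not known from gene-level values, so the order among *Grin2a*, *Grin2d* and *Grin3a* was not settled by these data.

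**Figure D3:**
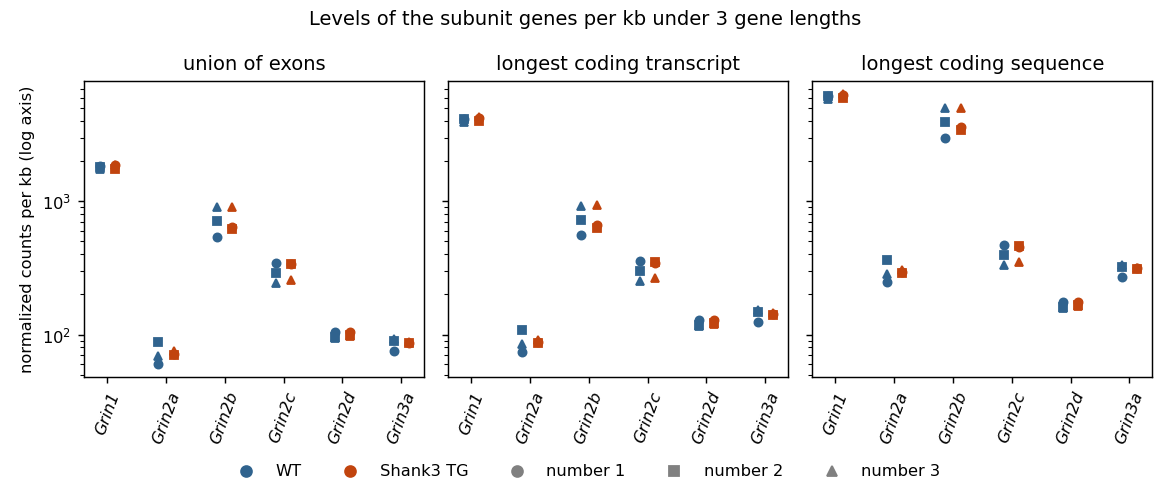
Normalized counts per kb (log axis) of each subunit gene in each library, with the length taken as the union of exons (left), the longest coding transcript (middle) and the longest coding sequence (right). WT is blue and *Shank3* TG orange, and the symbols mark the replicate numbers. *Grin1* is highest and *Grin2b* second in all panels, while the order of *Grin2a*, *Grin2d* and *Grin3a* changes.

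The GluN2 makeup of the mRNA pool was put in shares of the summed *Grin2* level per kb (union of exons). *Grin2b* made up 55.5%, 54.7% and 67.7% of it in TG and 51.3%, 59.8% and 68.8% in WT. The means were 59.3% ± 7.28 and 60.0% ± 8.74 (SD, n = 3 each), and the highest share of each genotype was in its library numbered 3. *Grin2c* made up 26.2% ± 5.96 in TG and 25.4% ± 7.15 in WT, *Grin2d* 8.39% ± 0.968 and 8.48% ± 1.42, and *Grin2a* 6.04% ± 0.377 and 6.18% ± 1.14 (SD, n = 3 each). The genotypes thus differed by less than 1 SD for each gene. Per kb of coding sequence the share of *Grin2b* was 81.5% ± 3.94 in TG and 81.7% ± 4.79 in WT and that of *Grin2c* 8.89% ± 2.53 and 8.60% ± 3.18, so the shares themselves depend on the length. The annotation behind the counts is not known, so the counts of a gene need not cover all of the length used here.

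The *Grin2a* to *Grin2b* ratio, often read as a sign of synaptic maturity, was taken per library from the normalized counts, to compare libraries and not the levels of the genes. It was 0.0809, 0.0829 and 0.0597 in TG and 0.0812, 0.0900 and 0.0556 in WT. The libraries numbered 3, in which *Grin2b* was highest, had the lowest ratio of each genotype, and TG-1 and WT-1 were nearly equal. The means were 0.0745 ± 0.0128 and 0.0756 ± 0.0179 (SD, n = 3 each). TG minus WT, the mean log2 ratio differed by -0.0071 ± 0.26 (SE), with p = 0.90 in an exact two-sided permutation test that cannot go below 0.10 with 3 libraries against 3, and 1 after adjustment over the 2 ratios tested. Within numbers the TG minus WT difference of the log2 ratio was -0.0057, -0.12 and 0.10, with p = 0.75 in an exact sign-flip test that cannot go below 0.25. Without TG-3 and WT-3 the difference was -0.063. Per kb of exon union the *Grin2a* to *Grin2b* ratio was 0.103 ± 0.0178 in TG and 0.105 ± 0.0248 in WT.

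**Figure D4:**
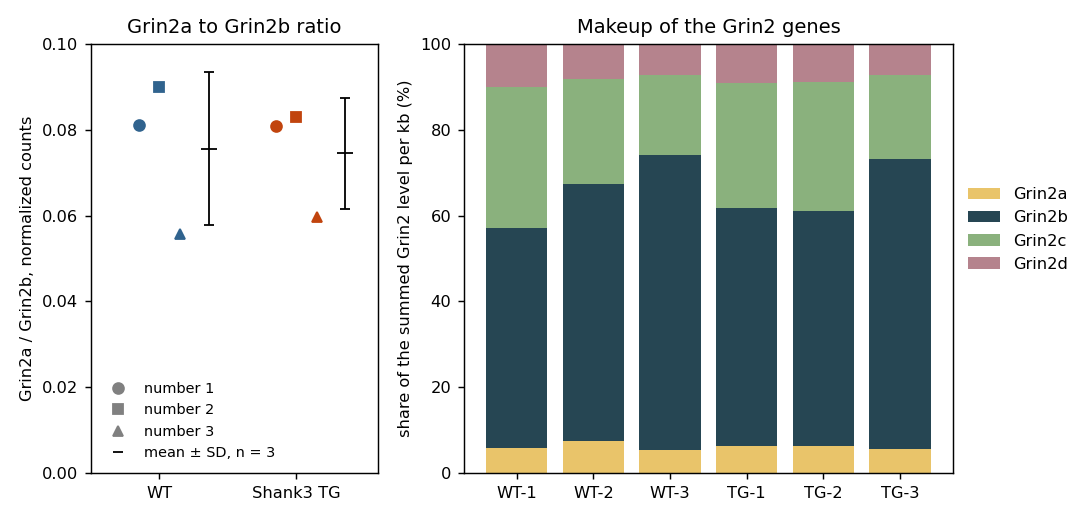
Left, the *Grin2a* to *Grin2b* ratio of normalized counts in each library (vertical axis from 0), with the mean ± SD of 3 libraries in black. Right, the share of each *Grin2* gene in the summed *Grin2* level per kb of exon union, in percent. The libraries numbered 3 hold the lowest ratio and the largest *Grin2b* share of each genotype.

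The obligatory subunit was set against its partners as the ratio of *Grin1* to the summed *Grin2* genes, per kb of exon union. It was 1.62, 1.56 and 1.41 in TG and 1.75, 1.54 and 1.34 in WT, lowest in the library numbered 3 of each genotype. The means were 1.53 ± 0.110 and 1.54 ± 0.207 (SD, n = 3 each), and the log2 difference was -0.0055 ± 0.13 (SE), with p = 1 in the exact two-sided permutation test, which again cannot go below 0.10.

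The genes whose log2 values followed each subunit most closely over the 6 libraries are given as a description, among the 13454 genes averaging 50 or more normalized counts. For *Grin2b* these were *Dlgap2* (Pearson r = 0.9985), which encodes a GKAP-family scaffold, and *Gda* (r = 0.9978), which encodes guanine deaminase (cypin), a binding partner of PSD-95. The number of genes that reached r = 0.95 was 237 for *Grin2b*, 153 for *Grin2c*, 61 for *Grin2d*, 31 for *Grin2a*, 27 for *Grin3a* and 23 for *Grin1*. How many a typical gene reaches was not counted, and 20.3% of all tested genes were highest in TG-3 and WT-3, as *Grin2b* was. *Dlgap2* had 2435, 2392 and 2849 normalized counts in TG and 2267, 2579 and 2839 in WT, so it too was highest in the libraries numbered 3. For *Grin2c* the closest were *Maged2* (r = 0.9948) and *Anxa3* (r = 0.9943), both lowest in TG-3 and WT-3. *Grin2a* was followed most closely by *Zfp871* (r = 0.9958) and *Alg10b* (r = 0.9926), *Grin2d* by *Nelfa* (r = 0.9929) and *Ltbp3* (r = 0.9886), *Grin3a* by *Shmt1* (r = 0.9878) and *Sarnp* (r = 0.9851), and *Grin1* by *Poli* (r = 0.9796) and *Med27* (r = 0.9787). The 6 points share the split by library number, and the closeness says nothing of a shared function.

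Around the receptor, 62 genes in 6 lists were all measured and tested, and none passed an adjusted or an unadjusted limma p of 0.05. The fitted value was above 0 for 48 and below for 14, against 8119 above and 8595 below of all 16714 genes. The genes share the same 6 libraries, so their signs are not independent. The median log2 fold change of the 62 was 0.041, against -0.0037 over all genes. That median was 0.0080 without WT-3, 0.025 without TG-1 and 0.013 without both libraries numbered 3. Within replicate numbers, 2 of the 62 passed an unadjusted p of 0.05, against 4.98% of all genes, and none an adjusted one. The groups did not overlap for 2 of the 62, among them *Prkaca*, against 6.02% of all genes.

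Among 12 downstream effectors, 11 had a fitted value above 0 (median 0.056 on the log2 scale). *Nos1*, the neuronal nitric oxide synthase that is tethered to the receptor through PSD-95, had 1009, 1328 and 1245 normalized counts in TG and 965, 1003 and 1133 in WT. The difference of 0.20 ± 0.12 (SE) on the log2 scale was the highest of the 62, and its blocked limma p was 0.0334 before and 0.984 after adjustment. *Mapk3*, the ERK1 kinase, had a log2 fold change of 0.13 ± 0.085 (SE), with blocked p values of 0.0401 before and 0.994 after adjustment in limma. *Camk2a*, the effector with the most normalized counts, not taken per length, had a log2 fold change of 0.047 ± 0.11 (SE).

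Of 14 kinases and phosphatases that act on the subunits, 12 had a fitted value above 0 (median 0.051). *Prkaca*, a catalytic subunit of protein kinase A, had 5048, 5014 and 5396 normalized counts in TG and 4946, 4812 and 4871 in WT, and its log2 fold change of 0.079 ± 0.066 (SE) had a limma adjusted p = 1. The genes of this list with the most normalized counts, not taken per length, were *Ppp3ca*, the calcineurin catalytic subunit (-0.053 ± 0.17, SE), and *Prkcb* (0.034 ± 0.072, SE).

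Of 15 anchoring and transport genes, 11 had a fitted value above 0 (median 0.037). *Dlg4*, which encodes PSD-95, had a log2 fold change of 0.071 ± 0.12 (SE) and *Dlg2*, which encodes PSD-93, -0.033 ± 0.10 (SE). In this list 8 of 15 genes, among them *Dlg1* to *Dlg4*, were lower in TG-3 and WT-3 than in the other 4 libraries and none was higher, against 20.6% and 20.3% of all genes. *Dlg4* had 22763 normalized counts in TG-3 and 20472 in WT-3, against 24801.5 to 26764 in the other libraries. *Grin2b* was higher in the libraries numbered 3, and a link between it and these anchors was not tested. Of the 14 kinases and phosphatases, 5 were higher in both of these libraries than in the others and 0 were lower.

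The handling of ligands showed no called change either. Of 11 co-agonist genes, 8 had a fitted value above 0 (median 0.044), and *Srr*, which makes D-serine, had 0.11 ± 0.19 (SE) and *Psat1*, of the serine synthesis pathway, -0.073 ± 0.085 (SE) on the log2 scale. Of 5 genes of glutamate uptake and recycling, 3 were above 0 (median 0.0025), with the astrocytic transporter *Slc1a2* at -0.016 ± 0.091 and glutamine synthetase, *Glul*, at -0.018 ± 0.14 (SE). Both were among the 3 of 5 genes of this list that were lower in TG-3 and WT-3 than in the other libraries, against 20.6% of all genes. *Slc1a3*, also an astrocytic transporter, was not, at 15298 in TG-3 and 15523 in WT-3 against 14724 in WT-2. A link of these genes to *Grin2c* was not tested. Of 5 receptor-associated genes, 3 were above 0 (median 0.051), with *Grina* at 0.059 ± 0.079 and the auxiliary protein gene *Neto1* at -0.073 ± 0.079 (SE). The remaining GluN3 gene, *Grin3b*, had only 4.3 to 15.1 normalized counts per library and the lowest fitted value of the 62, -0.40 ± 0.52 (SE).

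**Figure D5:**
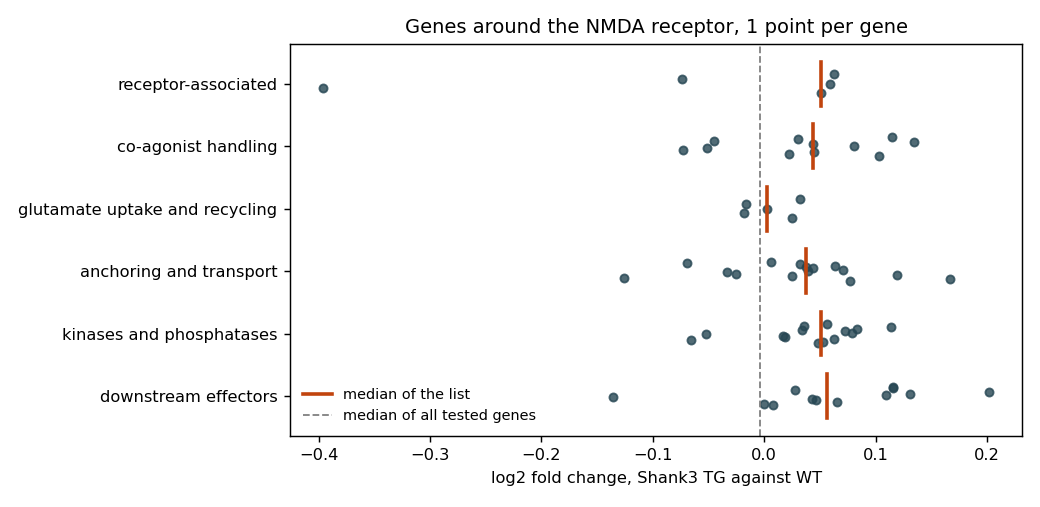
Log2 fold change of *Shank3* TG against WT for 62 genes around the NMDA receptor, 1 point per gene, in 6 lists. Orange bars mark the list medians, from 0.0025 to 0.056, and the dashed line marks the median of all tested genes, -0.0037; the leftmost point is *Grin3b*.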

How the data were processed

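RNA-seq of the mPFC was analysed in 6 libraries, 3 *Shank3* TG and 3 WT, each from 2 pooled mice. The authors quantified transcripts on GRCm38 with GC bias correction, summed them to genes with tximport and divided them by size factors. The deposited values are this signal, normalized counts, which are not whole numbers. The submitters' processing notes name Salmon 0.9.1, R 3.6.0 and DESeq2 1.19.11. The annotation release is not given in the sources used here. In all, 18231 of 18254 genes were found in GENCODE M21, whose exon lengths gave the levels per kb. These lengths may differ from those of the transcripts that the counts were made on. Library sums were 28363967 to 29447717 after this scaling and do not measure sequencing depth. The read totals per library that the study tabulates were not used here, and no counting interval was possible.

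The 16714 genes averaging 5 or more normalized counts were tested on log2(normalized count + 1) with two-sided limma 3.58.1 tests (trended eBayes, R 4.3.3) of genotype, with Benjamini-Hochberg adjustment over all of them and a threshold of 0.05. The limma fits were tested on simulated data with independent noise in each library, so the shared deviation of same-numbered libraries was not simulated. Fold changes on this scale understate those of low genes. Ratios were tested by exact permutation with scipy 1.17.1. Other settings changed the pseudocount, filter, scaling, variance model, null distribution, block and libraries. Samples with the same number deviated together (correlation of deviations from the genotype means of 0.302, 0.332 and 0.616 for numbers 1, 2 and 3, and from -0.443 to 0.266 for unlike numbers), so the numbers were taken to pair the libraries. This pairing comes from the data, as the labels do not say what a number shares. Numbers 1 and 2 were hardly told apart, since TG-1 with WT-2 gave 0.266 and TG-2 with WT-1 gave 0.227. Only number 3 was set clearly apart, so the blocked values rest on a pairing that the data bear out weakly for numbers 1 and 2. The study's methods name no block, and it was therefore kept as an alternative.

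The text names the 6 subunits, *Shank3* and genes of the 6 receptor lists with an unadjusted p under 0.05 or no overlap between genotypes. It also names at most 2 genes per list with the most normalized counts, not taken per length, and the 2 genes closest to each subunit by correlation. Some genes and sequences that these rules select are not reported here. *Grin3b*, *Nos1*, *Mapk3*, *Slc1a3*, *Dlg1* to *Dlg3* and the markers *Sox9*, *Slc4a4*, *Gfap*, *Aldoc* and *Ttr* were named after their values were seen. The exception is *Dlg2*, which is among the genes with the most normalized counts in its list. Members and lists were chosen with earlier results of these data known. Of the 8 cell type marker lists, those not given above were at 7079 to 8860 normalized counts in TG and 7402 to 9664 in WT for 6 microglial markers. In limma, 0 genes of any marker list passed the adjusted threshold, and 7 oligodendrocyte markers and 1 choroid plexus marker passed an unadjusted p of 0.05.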

Additional observations from a re-analysis of the deposited data

How the results depend on the processing

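No subunit gene passed the threshold in any of 18 settings, with a lowest limma adjusted p of 0.989. Of 72 log2 fold changes under the 12 settings that did not leave out a single library, 3 turned below 0: -0.012 for *Grin1* and -0.036 for *Grin2a* without both libraries numbered 3, and -0.0028 for *Grin2b* under quantile normalization. Of 36 values with a single library left out, 9 did. Leaving out each library in turn gave 0.0051 to 0.058 for *Grin1*, -0.11 to 0.16 for *Grin2a*, -0.17 to 0.20 for *Grin2b*, -0.033 to 0.22 for *Grin2c*, -0.010 to 0.068 for *Grin2d* and -0.068 to 0.081 for *Grin3a*. It gave -0.21 to 0.14 for the log2 difference of the *Grin2a* to *Grin2b* ratio and -0.10 to 0.090 for that of *Grin1* to summed *Grin2*, which was 0.0047 with no gene length. The cause of these changes of sign was not tested. With the replicate block the subunit values and both ratios were unchanged and no call was gained among them (*Grin2b* 0.020, limma adjusted p = 0.996). Over all genes, the count with an adjusted p under 0.05 was 0 (336 at an unadjusted p under 0.05), and it was 1 with the replicate block, a term for the libraries numbered 3, their removal, robust eBayes or upper quartile scaling, 26 under the empirical null, and 0 to 1 with each library left out (1 without WT-3). At an unadjusted p the count was 833 with the block, 717 with the term, 1215 under the empirical null and 219 without TG-1.

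Levels per kb depended on the length. Per kb of the longest coding transcript they were 4126 for *Grin1*, 88.9 for *Grin2a*, 122 for *Grin2d* and 141.5 for *Grin3a*, and per kb of coding sequence 6133 for *Grin1*, 296 for *Grin2a*, 4007 for *Grin2b*, 410 for *Grin2c*, 167 for *Grin2d* and 311 for *Grin3a*. Read counts per gene were not recovered from the normalized counts, and 3 pools per genotype leave the intervals given above as the limit on what could be detected.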
